A study of Homo sapiens with 6 samples.

Results

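The apolipoprotein genes described here encode protein components of plasma lipoproteins, most of which the liver makes and secretes. A list of 10 genes was followed: APOA1, APOA2, APOA4, APOA5, APOB, APOC2, APOC3, APOE, APOH and APOM. A gene was represented by the array row whose annotation gave its symbol and no other, and by the brightest such row over the 6 arrays. This gave 9 genes of the 10, each with a single row, among 18708 rows in all. APOC2, the cofactor of lipoprotein lipase, had no row of its own, because both rows that carried its symbol also carried that of APOC4.

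Total RNA came from the human hepatocellular carcinoma line PLC/PRF/5, an established cell line, taken 48 h after lipid-mediated transfection of small interfering RNA (siRNA). A control siRNA (siGL) against an irrelevant target was used in 3 samples and siRNAs against SLU7, which encodes a splicing factor of the second catalytic step, in 3 others. The series text names the control siGL2, whereas the sample descriptions read siGL1, siGL2 and siGL3. These numbers were read as replicate numbers, and if they were different siRNAs the control spread would include that between siRNAs. Each sample was hybridised to an Affymetrix Human Exon 1.0 ST array, and each row is a transcript cluster, a set of exon probes of the same gene, summarised to a log2 expression value. Both groups are transfected cells of a single line, no untransfected cells were analysed here, and the labels do not say whether replicates were separate cultures, so that the p-values cover array-to-array spread, which may be technical.

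SLU7 itself lay lower in every SLU7 siRNA array than in every control array, by -1.51 log2 units, or 35.2% of the control level, with an adjusted p of 0.0783 in the limma fit. The first principal component, which held 36.6% of the variance, set control replicate 2 and SLU7 replicate 1 against the other 4 arrays. Results that rest on these arrays are given within that pair and within the other 4 as well. Precision is limited by the number of arrays, and the median standard error of a log2 difference over all clusters was 0.312.

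Apolipoproteins coat lipoprotein particles, hold them in solution and direct them to enzymes and receptors. APOB is the large structural protein of very low and low density lipoproteins, and is built into the nascent particle by the microsomal triglyceride transfer protein. APOA1 and APOA2 are the main proteins of high density lipoprotein, whereas APOC3 and APOA5 act in opposite ways on the clearance of triglyceride-rich particles. Hepatocytes are the main source of most of these proteins in plasma, with the intestine sharing APOA1, APOA4 and APOB.

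Levels of most apolipoprotein genes were lower on the SLU7 siRNA arrays. Of the 9 genes measured, 8 had a negative log2 difference, where 49.5% of all clusters did. The median difference of the 9 genes was -0.50 log2 units, or 1.42-fold lower, beside a median of 0.0043 over all clusters. In RNA from whole cultures, fewer cells that express a gene and less RNA per cell cannot be told apart. APOC3 had the lowest difference at -1.73, followed by APOM at -1.19 and APOA1 at -0.93, while APOA5 and APOA4 were close to 0. No gene of the 9 passed the limma test at an adjusted p under 0.05, which 0.433% of all clusters did, and 3 of the 9 (APOC3, APOM and APOA1) had an unadjusted p under 0.05, where 13.1% of all clusters did. In 5 of the 9 genes every SLU7 siRNA array lay below every control array, which held for 9.21% of all clusters, and in none did every SLU7 siRNA array lie above, which held for 9.64%. Within the pair of arrays that stand apart the median difference was -0.48, and in the other 4 it was -0.56. No fold over 2.28 was seen outside APOC3, and the smallest called change in the whole table was 2.72-fold.

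**Figure D1:**
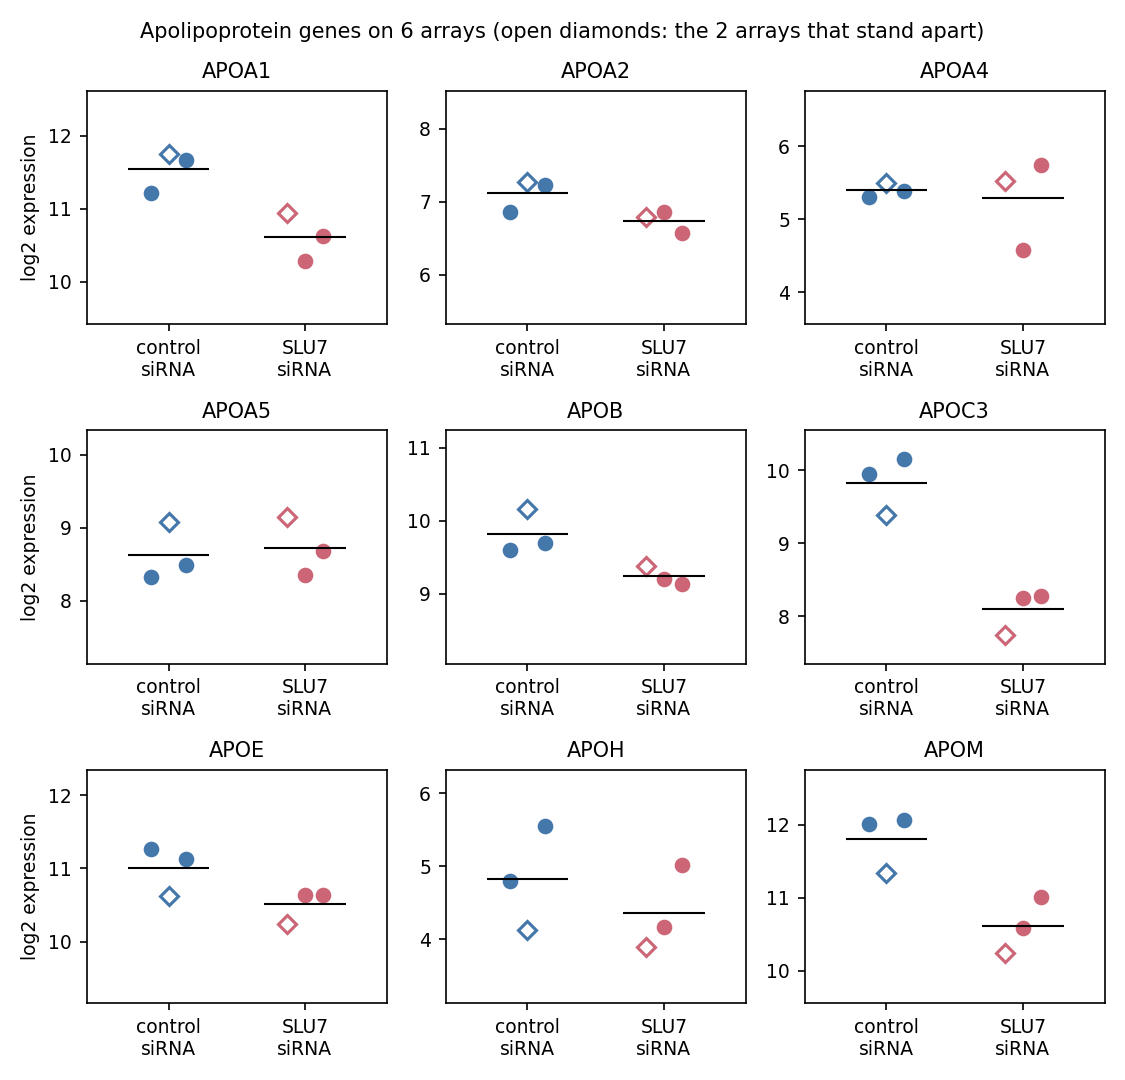
Log2 expression of the 9 apolipoprotein genes on each array, with control siRNA in blue and SLU7 siRNA in red, a line at each group mean and open diamonds for the pair of arrays that stand apart (every panel spans the same number of log2 units). In APOC3 the groups lie 1.11 log2 units apart without overlap, while in APOA4 and APOA5 they overlap.

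Promoter windows from RefSeq (GRCh38.p14, 250 bases before to 50 after an annotated start) were found for 6 of the 9 measured genes and for APOC2. They were searched on both strands for the hexamer AGGTCA, which many nuclear receptors recognise, and for GGTCA followed, after any 2 bases, by GGTC, the core of the direct repeat that HNF4A and other nuclear receptors bind. The motifs can overlap and were chosen with these windows in view. Of 35116 windows in the RefSeq table, 13.8% held the hexamer and 0.262% the direct repeat. No window was available for APOC3, APOA1 or APOB, so these genes were not searched. The windows of APOM and APOA2 are shown for genes whose groups did not overlap, and those of APOA5 and APOA4 for genes whose groups did. APOA2 is without overlap only nominally, by 2.1e-05 log2 units, so that these windows are no comparison of 2 kinds of gene. Capitals mark matches to either motif.
APOM: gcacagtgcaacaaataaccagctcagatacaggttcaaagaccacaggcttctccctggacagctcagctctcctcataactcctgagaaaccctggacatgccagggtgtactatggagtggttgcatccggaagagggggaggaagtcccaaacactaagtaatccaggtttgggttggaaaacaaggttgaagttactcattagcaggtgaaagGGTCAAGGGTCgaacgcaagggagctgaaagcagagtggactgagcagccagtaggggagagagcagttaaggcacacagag
APOA2: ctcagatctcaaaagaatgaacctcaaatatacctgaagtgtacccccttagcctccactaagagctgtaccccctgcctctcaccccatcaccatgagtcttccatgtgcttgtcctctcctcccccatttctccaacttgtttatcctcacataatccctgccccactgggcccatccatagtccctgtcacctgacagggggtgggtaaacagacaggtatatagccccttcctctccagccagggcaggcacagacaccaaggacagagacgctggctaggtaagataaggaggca
APOA5: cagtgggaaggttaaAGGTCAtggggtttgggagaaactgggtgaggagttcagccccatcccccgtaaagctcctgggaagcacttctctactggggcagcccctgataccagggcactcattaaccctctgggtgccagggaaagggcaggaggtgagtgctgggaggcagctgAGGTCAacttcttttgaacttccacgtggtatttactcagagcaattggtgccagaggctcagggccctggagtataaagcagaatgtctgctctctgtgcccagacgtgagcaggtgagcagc
APOA4: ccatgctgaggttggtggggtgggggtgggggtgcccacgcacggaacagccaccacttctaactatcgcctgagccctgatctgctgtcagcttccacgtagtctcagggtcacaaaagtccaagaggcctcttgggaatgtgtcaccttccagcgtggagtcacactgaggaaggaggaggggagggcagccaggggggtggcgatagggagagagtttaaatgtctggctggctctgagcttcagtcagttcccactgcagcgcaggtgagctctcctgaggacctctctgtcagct
The APOM window is chr6:31655644-31655943 on the plus strand, and the others lie on the minus strand at chr1:161223579-161223878 (APOA2), chr11:116792371-116792670 (APOA5) and chr11:116823255-116823554 (APOA4). APOM was the only gene of the 7 with a direct repeat, reading GGTCAAGGGTC at positions 219 to 229 of its window, counted from the 5′ end. The hexamer stood 2 times in the APOA5 window shown and was found in no window of APOM, APOA2, APOA4, APOE or APOH. A match is a description of the letters and not evidence that a factor binds there.

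Among the proteins that regulate triglyceride clearance, APOC3, an inhibitor of lipoprotein lipase and of remnant uptake, had the largest difference of the family. Its levels were 9.95, 9.39 and 10.15 log2 units in control replicates 1, 2 and 3, and 7.75, 8.26 and 8.28 in SLU7 replicates 1, 2 and 3. All 3 SLU7 siRNA arrays lay below the lowest control array, with a gap of 1.11 log2 units between the groups. The mean went from 9.83 ± 0.39 (SD, n = 3) with control siRNA to 8.10 ± 0.30 (SD, n = 3) with SLU7 siRNA. The difference was -1.73 ± 0.30 (SE) log2 units, that is a level 3.33-fold lower (95% interval 2.07 to 5.34). The limma adjusted p was 0.0526, just outside the threshold, and 114 of the 18708 clusters had a lower difference. The 2 arrays that stand apart differed by -1.64, and the other 4 gave -1.78. APOC3 passed the threshold in 4 of the alternative analyses, with limma adjusted p-values of 0.0112 without the dimmer clusters, 0.0108 with an intensity trend and robust shrinkage, 0.0139 with array weights, and 0.0197 with the pair of arrays as a block. It did not pass in the others, with limma adjusted p-values of 0.0632 to 0.203 when each array was left out.

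APOA5, an activator of triglyceride clearance that acts opposite to APOC3, showed no such difference. It stood at 8.33, 9.07 and 8.48 log2 units in control replicates 1, 2 and 3, and at 9.15, 8.35 and 8.68 in SLU7 replicates 1, 2 and 3. The groups overlapped, and the highest array of each group was the one that stands apart. The difference was 0.097 ± 0.32 (SE) log2 units, with a 95% interval from -0.625 to 0.819 (limma adjusted p = 0.955). Without control replicate 1 the sign turned, to -0.052, as it did without SLU7 replicate 1, to -0.11.

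APOM, a lipocalin that carries sphingosine 1-phosphate on high density lipoprotein, had the next lowest difference after APOC3. Its values were 12.01, 11.34 and 12.06 log2 units in control replicates 1, 2 and 3, against 10.25, 10.59 and 11.01 in SLU7 replicates 1, 2 and 3. The groups did not overlap, and the control array nearest to the other group was control replicate 2. The group means were 11.80 ± 0.40 (SD, n = 3) and 10.62 ± 0.38 (SD, n = 3), a difference of -1.19 ± 0.32 (SE) log2 units, or a 2.28-fold lower level (95% interval 1.38 to 3.76, limma adjusted p = 0.144). The 2 arrays that stand apart differed by -1.10, and the other 4 gave -1.24. In the same 4 alternative analyses APOM also passed, with limma adjusted p-values of 0.0492 without the dimmer clusters, 0.0388 with the trend, 0.0423 with array weights and 0.0328 with the block. APOM did not pass in the others, with limma adjusted p-values of 0.31 with the replicate block and 0.102 to 0.363 when each array was left out.

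APOA1, the main protein of high density lipoprotein and the activator of the cholesterol-esterifying enzyme LCAT, was lower in all 3 SLU7 siRNA arrays. Its levels were 11.22, 11.75 and 11.67 log2 units in control replicates 1, 2 and 3, and 10.94, 10.29 and 10.62 in SLU7 replicates 1, 2 and 3. The groups lay 0.273 log2 units apart at their nearest arrays. The difference was -0.93 ± 0.28 (SE) log2 units, 52.6% of the control level, with a limma adjusted p of 0.198. APOA2, the next most abundant protein of that lipoprotein in plasma, was at 6.86, 7.27 and 7.23 with control siRNA and at 6.79, 6.86 and 6.58 with SLU7 siRNA, in the same order of replicates. Its groups were apart by a mere 2.1e-05 log2 units, so that APOA2 counts among the 5 genes without overlap only nominally. The APOA2 difference was -0.38 ± 0.25 (SE) log2 units (limma adjusted p = 0.613).

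APOB, the structural protein of very low and low density lipoproteins, was at 9.61, 10.16 and 9.70 log2 units in control replicates 1, 2 and 3, and at 9.39, 9.20 and 9.13 in SLU7 replicates 1, 2 and 3. All 3 SLU7 siRNA arrays were below the lowest control array, by at least 0.219 log2 units. The difference was -0.58 ± 0.26 (SE) log2 units, or 66.9% of the control level, and its 95% interval of -1.17 to 0.0129 reached 0 (limma adjusted p = 0.393). The editing enzyme APOBEC1, which makes the short form of the APOB protein by changing its mRNA, and its partner A1CF had differences of 0.36 and 0.19 (limma adjusted p = 0.774 and 0.872). A single value per gene cannot show editing or a choice of exons.

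APOE, the ligand by which remnant particles bind receptors of the low density lipoprotein receptor family, had overlapping groups. Its levels were 11.27, 10.63 and 11.13 log2 units in control replicates 1, 2 and 3, and 10.24, 10.64 and 10.64 in SLU7 replicates 1, 2 and 3. Control replicate 2, which stands apart, lay among the SLU7 siRNA arrays. The APOE difference was -0.50 ± 0.28 (SE) log2 units (95% interval -1.14 to 0.135, limma adjusted p = 0.524). Within the other 4 arrays it was -0.56.

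APOA4, an apolipoprotein made mainly by the intestine, was dim, with values of 5.30, 5.50 and 5.38 log2 units in control replicates 1, 2 and 3, and 5.53, 4.58 and 5.74 in SLU7 replicates 1, 2 and 3. SLU7 replicate 2 was the lowest array and lay below the lower quartile of its array. The difference of -0.11 ± 0.34 (SE) log2 units had a 95% interval from -0.876 to 0.655 and turned to 0.24 without SLU7 replicate 2. APOH, beta-2-glycoprotein I, which binds anionic phospholipids, lay below the lower quartile of the array on 4 of the 6 arrays. It stood at 4.80, 4.13 and 5.56 with control siRNA and at 3.90, 4.18 and 5.02 with SLU7 siRNA, so that its groups overlapped and its fold is uncertain. The APOH difference was -0.46 ± 0.43 (SE) log2 units (limma adjusted p = 0.753), being -0.81 if control replicate 2 was left out and -0.099 if control replicate 3 was.

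**Figure D2:**
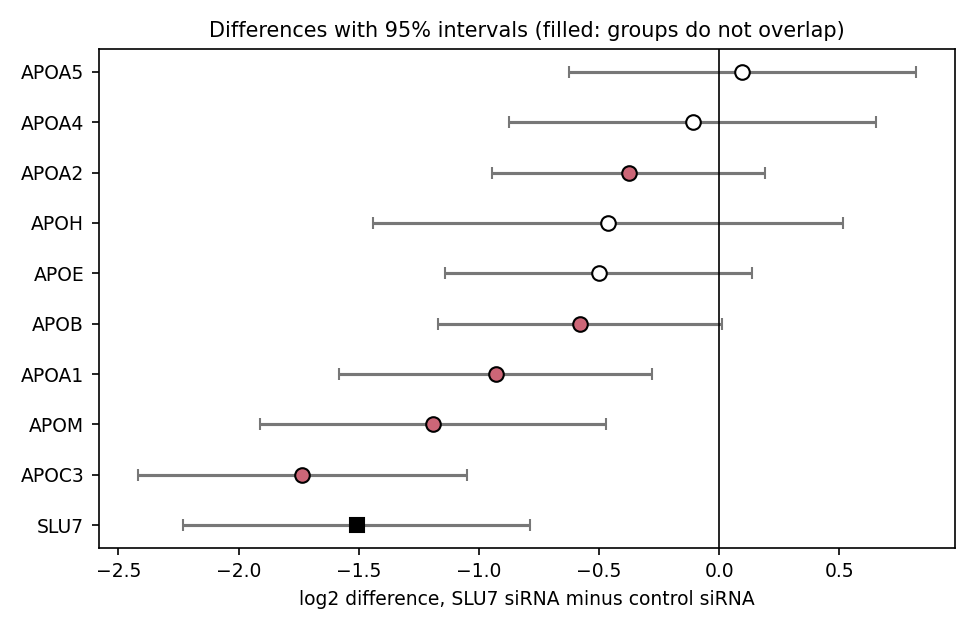
Log2 differences between SLU7 siRNA and control siRNA for the 9 apolipoprotein genes and SLU7 (square), with 95% limma intervals. Filled points are genes whose groups do not overlap, and the intervals of APOC3, APOM and APOA1 lie below 0 while those of the other 6 apolipoprotein genes reach it.

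The rows shared between APOC2 and APOC4 were left out of every count. The brighter of them had a difference of 0.076 ± 0.41 (SE) log2 units, and the dimmer, below the lower quartile on all 6 arrays, one of 0.74 ± 0.48. Neither passed (limma adjusted p = 0.977 and 0.6), and in both the groups overlapped.

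The levels in the pair of arrays that stand apart are given here beside those in the other 4. The pair was chosen on the first principal component of these same arrays, so some difference along it follows from that choice. APOH, APOM, APOC3 and APOE were lower in that pair than in the other 4 arrays, by -0.87, -0.62, -0.59 and -0.49 log2 units. APOA5, APOA1, APOB, APOA4 and APOA2 were higher there, by 0.65, 0.40, 0.36, 0.26 and 0.14. The pair holds an array of each group, and the difference between siRNAs had the same sign within the pair and within the other 4 in 8 of the 9 genes. APOA4 was the exception, at 0.027 within the pair and -0.18 within the other 4. What sets these 2 arrays apart was not tested.

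**Figure D3:**
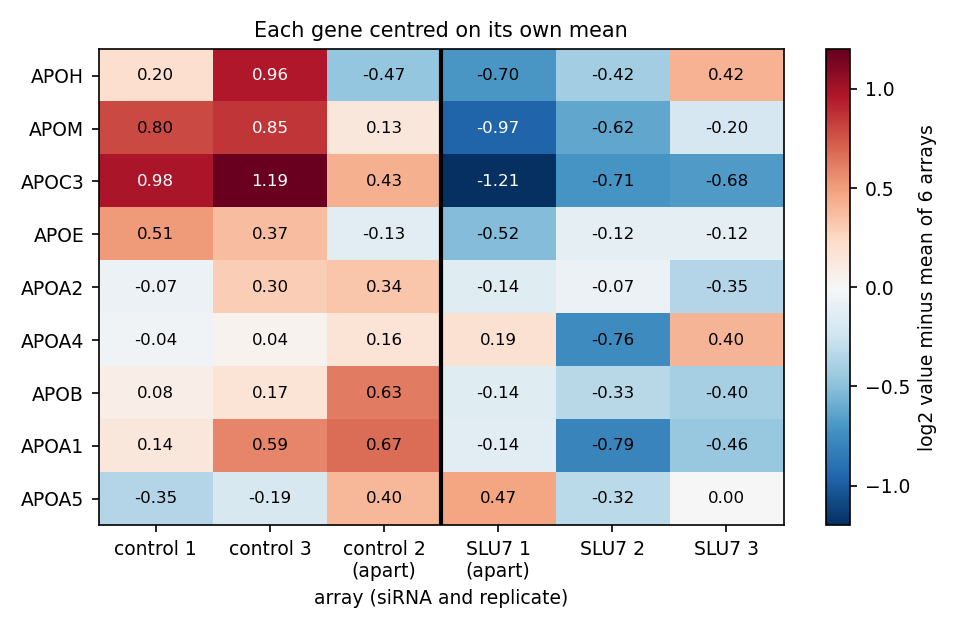
Log2 value of each gene on each array minus the gene's mean over the 6 arrays, with control arrays left and SLU7 siRNA arrays right of the black line, and genes ordered by their level in the pair of arrays that stand apart. APOH, APOM, APOC3 and APOE are bluer in that pair than on the other arrays of the same siRNA, and APOB, APOA1 and APOA5 are redder.

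APOA5, APOA4, APOC3 and APOA1 are neighbours on chromosome 11, in that order in the RefSeq table of GRCh38.p14. Their differences were unequal along the cluster, at 0.097, -0.11, -1.73 and -0.93 log2 units. The nearest measured genes on either side, ZPR1 and PAFAH1B2, had differences of 0.51 ± 0.24 (SE) and 0.38 ± 0.24 log2 units, with no overlap between groups in the upward direction and no call (limma adjusted p = 0.426 and 0.582). On chromosome 19, APOC1, the nearest measured gene after APOE and itself an apolipoprotein that inhibits lipoprotein uptake, had a difference of -0.62 ± 0.26 (SE) without overlap between groups (limma adjusted p = 0.358), and TOMM40 on the other side one of -0.067. APOM lay between BAG6 at -0.64 and C6orf47 at 0.64. Over the 12 nearest measured genes that are not on the list of 10, the differences ran from -1.75 (PRKCA, beside APOH) to 0.64. Of these 12 genes 7 were below 0, where 49.5% of all clusters were, and none was called. There were 3 without overlap in each direction, beside 9.21% of all clusters downward and 9.64% upward.

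**Figure D4:**
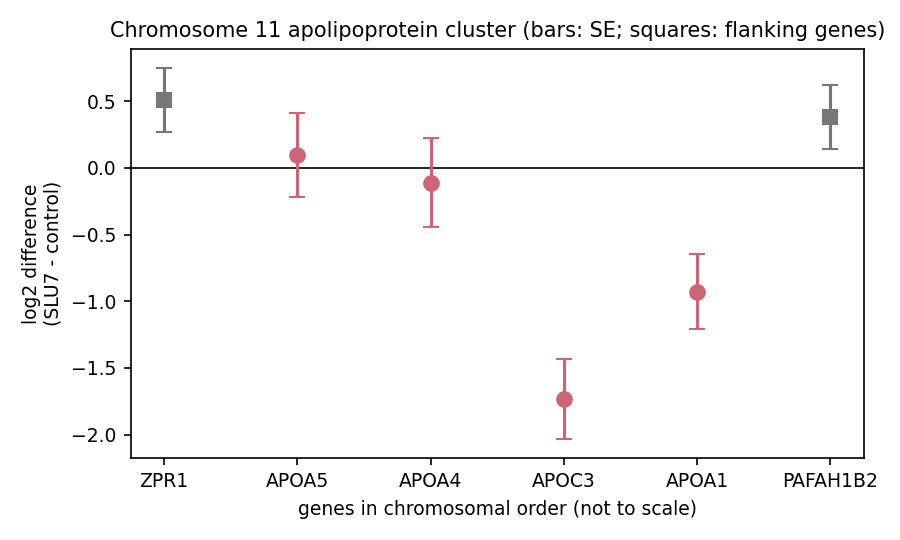
Log2 differences (SLU7 siRNA minus control siRNA, bars are SE) of the apolipoprotein genes of chromosome 11 (circles) and their nearest measured flanking genes (squares), in chromosomal order and not to scale. APOC3 and APOA1 lie below 0 while APOA5 and APOA4 lie near it and both flanking genes above it.

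No gene of the 6 lists of lipoprotein metabolism drawn up around these 9 genes passed the limma test at an adjusted p under 0.05. Over all clusters 0.433% passed, 49.5% had a difference below 0 and 13.1% had an unadjusted p under 0.05. The list of other apolipoproteins had 14 measured members of 15, with a median difference of -0.29, 10 members below 0 and 3 at an unadjusted p under 0.05. Among these 3, LPA had a positive difference of 1.205 ± 0.51 (SE) log2 units, with overlapping groups (limma adjusted p = 0.366). LPA was below the lower quartile on 5 of the 6 arrays. APOO, a mitochondrial protein of the cristae complex despite its name, was at -0.90 (limma adjusted p = 0.21) and APOC1 at -0.62, both without overlap between groups. Lipoprotein assembly and secretion had 21 of 24 members measured, a median of -0.21, 15 below 0 and 3 at an unadjusted p under 0.05. DGAT1, which makes triglyceride, was at -0.62 and SEC23A, a coat protein of vesicles that leave the endoplasmic reticulum, at -0.27 (limma adjusted p = 0.343 and 0.732). MTTP, the triglyceride transfer protein that loads APOB, is named here after its values were seen. It stood at 7.30, 6.15 and 7.95 log2 units in control replicates 1, 2 and 3 and at 4.63, 5.25 and 6.51 in SLU7 replicates 1, 2 and 3. The spread within groups was wide and they overlapped, and the difference of -1.67 ± 0.57 (SE) did not pass (limma adjusted p = 0.252).

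Enzymes and inhibitors that remodel lipoproteins in plasma had 19 of 22 members measured, with a median of -0.13, 13 below 0 and 2 at an unadjusted p under 0.05. LIPC, the hepatic lipase, was at -2.01 ± 0.54 (SE) log2 units (limma adjusted p = 0.146). ANGPTL4, an inhibitor of lipoprotein lipase, was at 9.99, 9.62 and 9.99 with control siRNA and at 8.41, 8.39 and 8.49 with SLU7 siRNA. Its groups lay far apart, and the difference of -1.44 ± 0.24 (SE) stood just outside the threshold (limma adjusted p = 0.0518). Receptors and uptake proteins had 14 of 18 members measured, a median of -0.18, 11 below 0 and 2 at an unadjusted p under 0.05. Of these 2, VLDLR, the very low density lipoprotein receptor, was at -0.75 (limma adjusted p = 0.298). The other, SORL1, was at -2.02 ± 0.41 (SE) log2 units without overlap between groups (limma adjusted p = 0.0747). SORL1 was dim, below the lower quartile on 4 of the 6 arrays. Regulators of apolipoprotein transcription had 39 of 42 members measured, a median of -0.15, 27 below 0 and 6 at an unadjusted p under 0.05. The shares over all clusters were 49.5% and 13.1%. SIRT1, a deacetylase that acts on several of these factors, was at 1.58 and ESRRA, the estrogen-related receptor alpha, at -1.18 (limma adjusted p = 0.0748 and 0.139). HNF4A, a nuclear receptor that drives many liver genes, was not analysed here.

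**Figure D5:**
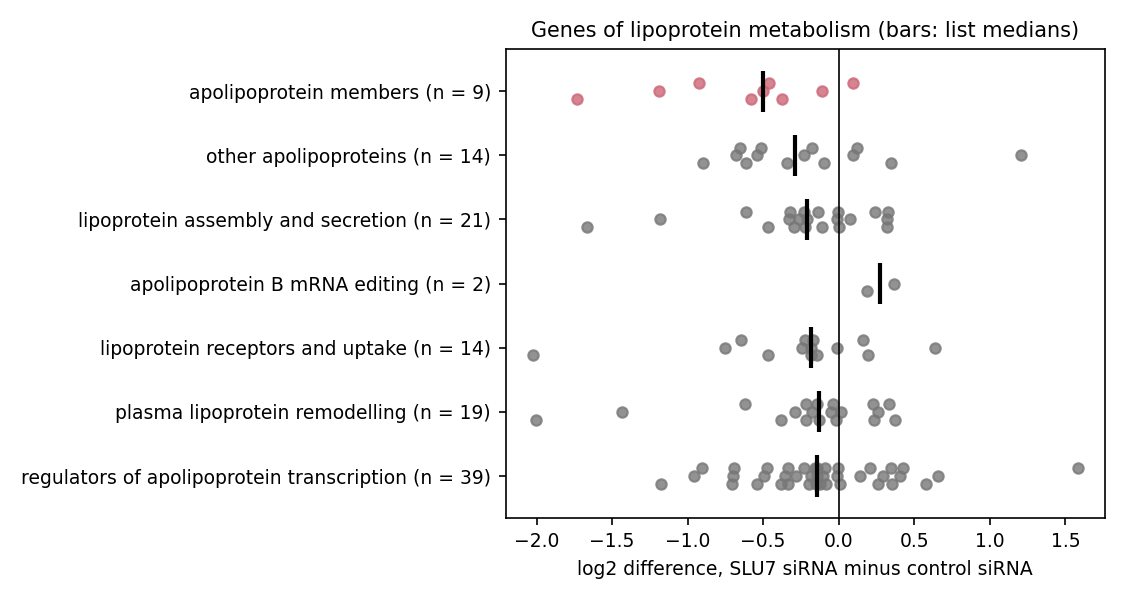
Log2 differences of single genes (points) in the apolipoprotein family and in 6 lists of related genes, with each list's median as a black bar. The median of the 9 apolipoprotein genes is -0.50, and those of the other lists run from -0.29 to 0.27.

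Liver markers other than apolipoproteins also had mostly negative differences. Of 17 markers 16 were measured and 15 had a negative difference, where 49.5% of all clusters did. Of the 16, 4 had an unadjusted p under 0.05 and 5 had groups without overlap downward, beside 13.1% and 9.21% of all clusters. ASGR1, a subunit of the asialoglycoprotein receptor, fell by 2.02 log2 units (limma adjusted p = 0.0371). The summed log2 values of the 16 markers ran from 133.9 to 135.9 on the control arrays and from 125.9 to 129.6 on the SLU7 siRNA arrays, without overlap. ALB, the gene of albumin, was below the lower quartile on all 6 arrays, AFP was at 6.01 and 5.21 on average, and TTR at 5.97 and 5.91. Of 14 enterocyte markers 13 were measured, 8 had a positive and 5 a negative difference with a median of 0.071, VIL1 (villin) fell by 2.82 log2 units (limma adjusted p = 0.0371), and 5, among them FABP2 and SI, were below the lower quartile on all 6 arrays. Their summed log2 level ran from 70.1 to 73.2 and from 67.4 to 70.6. The part of the liver and enterocyte markers in the apolipoprotein differences was not tested. Of 12 macrophage and blood cell markers 11 were measured, with none called and 1 (LYZ) at an unadjusted p under 0.05. Their summed levels were 53.1 to 56.7 and 53.2 to 55.3, and 3, among them PTPRC, were below the lower quartile on all 6 arrays. LYZ was bright, at 10.07 with control siRNA and 9.17 with SLU7 siRNA on average. Its groups did not overlap, with a difference of -0.89 log2 units (limma adjusted p = 0.282). All 13 endothelial and stromal markers were measured, with none called or at an unadjusted p under 0.05, and summed levels of 68.4 to 70.4 and 65.7 to 73.2.

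The genes whose values over the 6 arrays were most like the mean centred level of the 9 apolipoprotein genes were ARHGEF12, FAH, ACAA2, CD63 and LIMK1, by Pearson's r from 0.990 to 0.996 among 16278 clusters with a single symbol. All 5 had groups without overlap in the downward direction, beside 9.21% of all clusters. This follows largely from how they were chosen, because the mean centred level itself did not overlap between groups. The differences of the 5 genes ran from -1.62 (ARHGEF12) to -0.49 (FAH). With 6 points that share the group difference, such values are a description of these arrays.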

How the data were processed

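The authors deposited log2 expression values, 1 per core transcript cluster, on 6 arrays. Per the labels, probes were grouped by the core definition from aroma.affymetrix, and the submitters' processing notes name RMA, which corrects background, normalizes and summarises probes. The log2 scale was read from the values. No genome build is named in the sources used here. Symbols came from GEO's platform annotation (16287 clusters with 1 symbol, 674 with several, 1747 with none). For the gene lists, older symbols in the annotation were updated through RefSeq, in 2179 clusters. The 10 apolipoprotein genes were matched to the annotation as given.

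All clusters were fitted with limma 3.58.1 (R 4.3.3, lmFit and eBayes without trend, group as the only term, no filter), with Benjamini-Hochberg adjustment over 18708 clusters at 0.05. Exact two-sided permutation tests of single genes cannot go below 0.1 with 3 arrays against 3, the value given by all 5 apolipoprotein genes without overlap and by SLU7. The fit was tested on simulated data, in 10 simulations. It recovered 5.7% of the changes of 1 log2 unit and 81.7% of those of 2, with 7.4 false calls on average. A gene that is not called may therefore still differ by 1 log2 unit.

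The members, lists and settings were chosen with earlier results of these data known. Genes named beside the members were those called in a list, up to 2 per list with the largest differences and no overlap between groups in clusters above the lower quartile, nearest neighbours, the markers ALB, AFP and TTR, and the 5 most alike profiles. PTPRC, SI, FABP2, LPA and SORL1 were named after their values were seen. Alternatives were a replicate block, a filter on dim clusters, array weights, a threshold of 0.01, median centring, an intensity trend (robust), quantile normalization, averaging a gene's clusters, leaving out each array, and, added after seeing the data, blocking or removing the 2 arrays that stand apart.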

Additional observations from a re-analysis of the deposited data

How the results depend on the processing

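The median difference of the apolipoprotein genes moved by less than the spread between replicates in every alternative run (-0.69 to -0.40 when each array was left out). The number of genes without overlap between groups was 4 with median centring and 6 with quantile normalization. It was 5 to 6 when each array was left out and 6 without the pair of arrays that stand apart, but removing arrays cannot lower it. The remaining alternatives leave the values of each gene as they are. The number of apolipoprotein genes called went from 0 to 2 (APOC3 and APOM) without the dimmer clusters, with the intensity trend, with array weights and with the pair of arrays that stand apart as a block, and stayed 0 in all other alternatives. The filter on dim clusters kept 7 of the 9 genes, without APOA4 and APOH. SLU7 passed in the same 4, at -1.51 (adjusted p = 0.0213), -1.51 (0.033), -1.61 (0.0269) and -1.51 (0.043). The block for the pair was chosen from these arrays, so its p-values may be too small.

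Over all clusters, 25 were called higher and 56 lower. These became 196 and 278 without the dimmer clusters, 173 and 268 with the trend, 221 and 354 with array weights, and 357 and 426 with the block for the pair. They became 0 and 0 with the replicate block, at the threshold of 0.01, without the pair (2922 clusters at an unadjusted p under 0.05) and without any single array (1833 to 2573 clusters). With the replicate block APOC3 had an adjusted p of 0.199 and the median difference was -0.50. Deviations of same-numbered arrays correlated at -0.381, -0.314 and 0.141. The sign turned for APOA5 without control replicate 1 (-0.052) and without SLU7 replicate 1 (-0.11), over a range of -0.11 to 0.32, and for APOA4 without SLU7 replicate 2 (0.24), over a range of -0.34 to 0.24. The cause was not tested. APOA4 and APOH were dim, below the lower quartile of the array on 1 and 4 of the 6 arrays. The part of dim signal in their values was not tested.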
